A study of Mus musculus with 19 samples.

Results

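The collagen genes were taken as all genes whose symbol is Col, a number, the letter a and a number, and 43 of the 23284 genes in the deposited values met this rule, the same 43 in both deposited tables. The rule read gene names only. By structural class, 11 of the 43 encode fibrillar chains, 6 encode the basement membrane chains of type IV, 3 encode chains of hexagonal networks (types VIII and X), 6 encode the beaded filament chains of type VI, 1 encodes the anchoring fibril chain of type VII, 9 encode FACIT chains (fibril-associated collagens with interrupted triple helices), 4 encode transmembrane collagens, 2 encode multiplexins, and Col28a1 stands in none of these classes. All 43 genes passed the filter on low values in each of the 3 comparisons described here.

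A collagen molecule is a trimer of chains that wind around each other along a stretch in which glycine recurs at regular steps. Fibrillar collagens form the cable-like fibers of connective tissue and are made in large amounts by fibroblasts, osteoblasts and chondrocytes, whereas type IV collagens form the sheet-like network of basement membranes that underlies epithelia such as the prostate ducts. The other classes decorate fibers, link cells to fibers or basement membranes, or stay in the cell membrane.

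RNA-seq, a measure of transcript abundance by read counting, was performed on 6 libraries of mouse embryonic fibroblasts (MEFs), 6 of wild-type prostate and 7 of renal grafts. MEFs came from C57BL/6 embryos of stage E13.5 that carried the Nkx3-1tm2(LacZ)Mms allele over a wild-type allele, and per the study's methods from limb tissue of pooled male and female littermates, with blood, endothelial and EpCAM-positive cells removed by sorting. The prostate samples were whole prostates of C57BL/6 mice at 6 weeks of age. Renal grafts were grown for 6 weeks under the kidney capsule of male nude mice that carried testosterone pellets, from induced epithelial (iEpt) cells, which are MEFs given retroviral OCT4, SOX2, KLF4 and c-MYC and cultured in epithelial medium, mixed with urogenital mesenchyme of rat embryos in a collagen gel. All 7 grafts carry the same labels. The study's supplement names FS002, FS003, FS005, FS007 and FS008 as iEpt+NAF grafts, whose cells also received lentiviral transcription factors, and the other two, FS022 and FS023, are iEpt only by elimination. A graft therefore holds rat stroma beside the mouse cells, and may hold vessels and kidney tissue of the mouse host, and how far rat reads were counted on mouse collagen genes was not tested. In such bulk samples, fewer cells of a type and less RNA per cell cannot be told apart.

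The deposited values are log2 normalized read counts on a variance-stabilized scale, in which values above about 11.5 differ as log2 counts do and low values are compressed and carry added scatter. Reads counted on genes, recovered from the spacing of the high values, ranged from 20418158 to 26152339 in MEFs, 16767287 to 22512387 in prostate, 17371422 to 23446519 in the 5 iEpt+NAF grafts, and were 6629663 and 9662056 in FS022 and FS023. A count of 3 reads corresponded to 1.68 to 2.34 on the log2 scale in the table of 17 libraries and to 3.12 and 2.70 in FS022 and FS023, and covers counting error only. The MEF libraries formed 3 close couples (FS015 with FS020, FS016 with FS019, FS017 with FS018). In these, the log2 difference of highly expressed genes had a spread of 0.0562 to 0.0763, against 0.283 to 0.331 in the other 12 MEF pairs. The spread was the median absolute deviation put on the scale of an SD, which gives little weight to the few genes that differ most. The couples differed by 2.01 to 2.90 times the counting error, and the other 12 MEF pairs by 10.4 to 12.3 times. A difference above counting error does not show that the libraries of a couple are independent, and this was not tested. They were kept as 6 libraries, and the counts below are also given with each couple averaged. Unless stated otherwise, single-gene standard errors and p-values against MEFs rest on 6 libraries. They may be too small if the libraries of a couple are repeats of the same culture. The study's supplement calls the 6 prostate samples independent. For MEFs and grafts the labels do not say whether libraries came from separate cultures or animals, so there p-values measure the spread between these libraries, which may in part be technical. MEF libraries FS015 to FS018 held prostate secretory transcripts at a median of 0.0531% to 0.192% of their prostate level. The 6 kidney tubule genes summed to 5871, 87.4, 11965, 444 and 10074 reads per 1000000 gene reads (rpm) in the iEpt+NAF grafts, given from FS002 to FS008 in order of their numbers, against at most 4.70 in prostate and 18.8 in MEFs.

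The classes differ in the length of the unbroken glycine repeat that their coding sequences carry in the GENCODE M1 annotation. Counted as glycine codons placed 3 codons apart, the longest run was 337 to 344 repeats in 9 of the 11 fibrillar genes, and 216 and 217 in Col24a1 and Col27a1. The type IV genes had a longest run of only 39 to 66 repeats, spread over 22 to 27 runs of at least 4. Partner chains were alike in types IX and I, with 113 in each of Col9a1, Col9a2 and Col9a3 and 338 and 339 in Col1a1 and Col1a2, and unlike in others, with 40 and 66 in Col4a1 and Col4a2, and 87 in Col6a1 and Col6a2 against 45 in Col6a3.

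Collagen genes took 3.86% to 5.25% of all gene reads in the 6 MEF libraries (median 4.52%). The same share was 0.265% to 0.591% in prostate (median 0.383%), and 0.703, 0.832, 0.349, 0.251 and 0.290% in the iEpt+NAF grafts. Values of the 5 iEpt+NAF grafts, here and in what follows, are given in the order FS002, FS003, FS005, FS007 and FS008. Every MEF library was above every prostate and graft library, and the prostate and graft ranges overlapped. Fibrillar chains made up most of the MEF share, at 3.0% to 4.03% of gene reads, against 0.0760% to 0.260% in prostate and 0.105% to 0.570% in the grafts. Type IV chains took 3.46% to 9.22% of the collagen reads in MEFs, 11.8% to 30.6% in prostate and 12.9% to 40.8% in the grafts, the highest in FS008. The MEF fibrillar share therefore exceeded all collagen reads of any prostate or graft library.

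**Figure D1:**
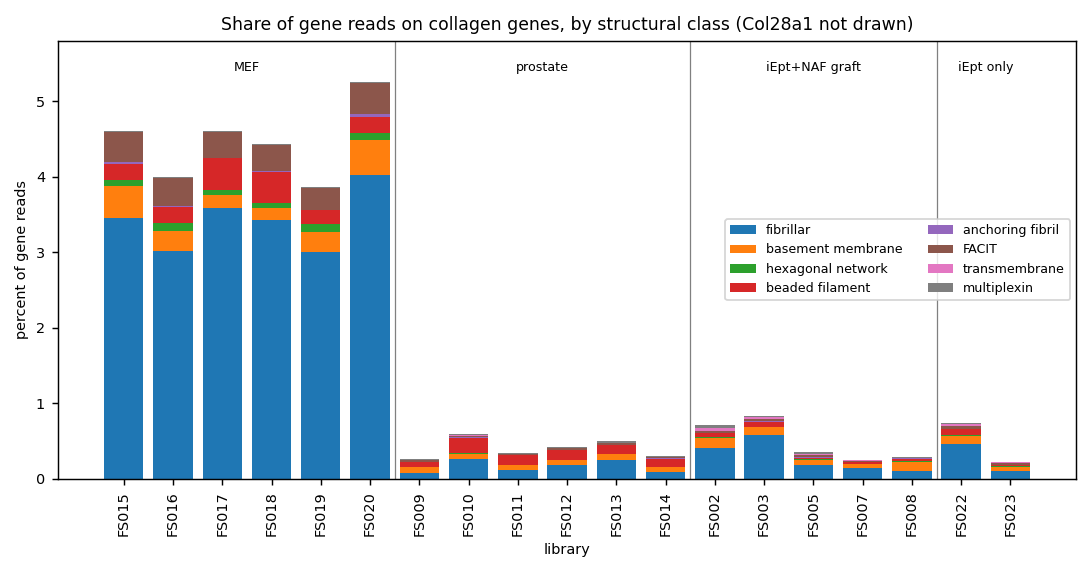
Share of all gene reads (percent, vertical axis) that fell on collagen genes in each of the 19 libraries, stacked by structural class. The 6 MEF bars reach 3.86% to 5.25%, while no prostate or graft bar exceeds 0.832%.

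Per kilobase of the transcript with the longest coding sequence and 1000000 gene reads (RPKM), the MEF order was led by Col1a1 at 2231 ± 415 (mean ± SD, n = 6), Col1a2 at 1501 ± 301 and Col3a1 at 691 ± 313. Prostate was led by Col3a1 at 135 ± 78.0 and Col6a3 at 104 ± 46.7 (mean ± SD, n = 6), and Col4a6, which was far down the MEF order at 1.55 ± 0.824, stood sixth in prostate at 39.7 ± 18.3. The grafts were led by Col3a1 at 200.4 ± 176, Col1a2 at 117 ± 105 and Col1a1 at 105 ± 68.4 (mean ± SD, n = 5), with SDs large enough that the order of these 3 was not resolved.

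In prostate against MEFs, 10 of the 43 collagen genes were called higher in prostate and 22 lower (limma, adjusted p under 0.05 and a log2 fold change of at least 1 in size), where 27.8% and 20.5% of all 14560 genes tested were called in these directions. The share called lower among collagen genes was 51.2%, and the share called higher 23.3%, near the background. The median log2 fold change was -1.28 over the 43 genes and 0.17 over all genes tested. In the 5 iEpt+NAF grafts against MEFs, 12 collagen genes were called higher and 19 lower, against 29.9% and 12.0% of all 16121 genes tested, with a median of -0.64 against 0.26. In grafts against prostate, 9 were called higher and 5 lower, shares of 20.9% and 11.6%, near the 23.0% and 10.3% of all 16353 genes tested, with a median of 0.44 against 0.11. Both comparisons with MEFs share the MEF libraries, so their counts are given side by side only.

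Several of these counts moved with the libraries or the scaling used. With quantile normalization, which lowered the median of all graft-against-MEF differences by 0.54, 5 collagen genes were higher and 21 lower in the grafts than in MEFs, in place of 12 and 19, the lost calls being those of Col6a4, Col6a6, Col9a3, Col11a2, Col13a1, Col20a1 and Col25a1. With MEF libraries FS019 and FS020 only, 7 were higher and 17 lower. With MEF couples averaged the counts were 11 and 17 for grafts, and 10 and 21 for prostate. The calls lost were those of Col2a1, Col6a6 and Col24a1 for grafts and of Col22a1 for prostate. In grafts against prostate, leaving out FS007 gave 15 higher genes in place of 9 by adding Col2a1, Col4a3, Col4a4, Col9a1, Col24a1 and Col27a1. Leaving out FS008 gave 14 by adding Col1a1, Col2a1, Col9a2, Col17a1 and Col24a1. With only genes of a linear mean of at least 100, 4 of 34 tested were higher. With FS003 and FS007 only, the grafts with the fewest kidney tubule reads, 7 were higher and 4 lower than in prostate, and 9 and 18 than in MEFs.

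**Figure D2:**
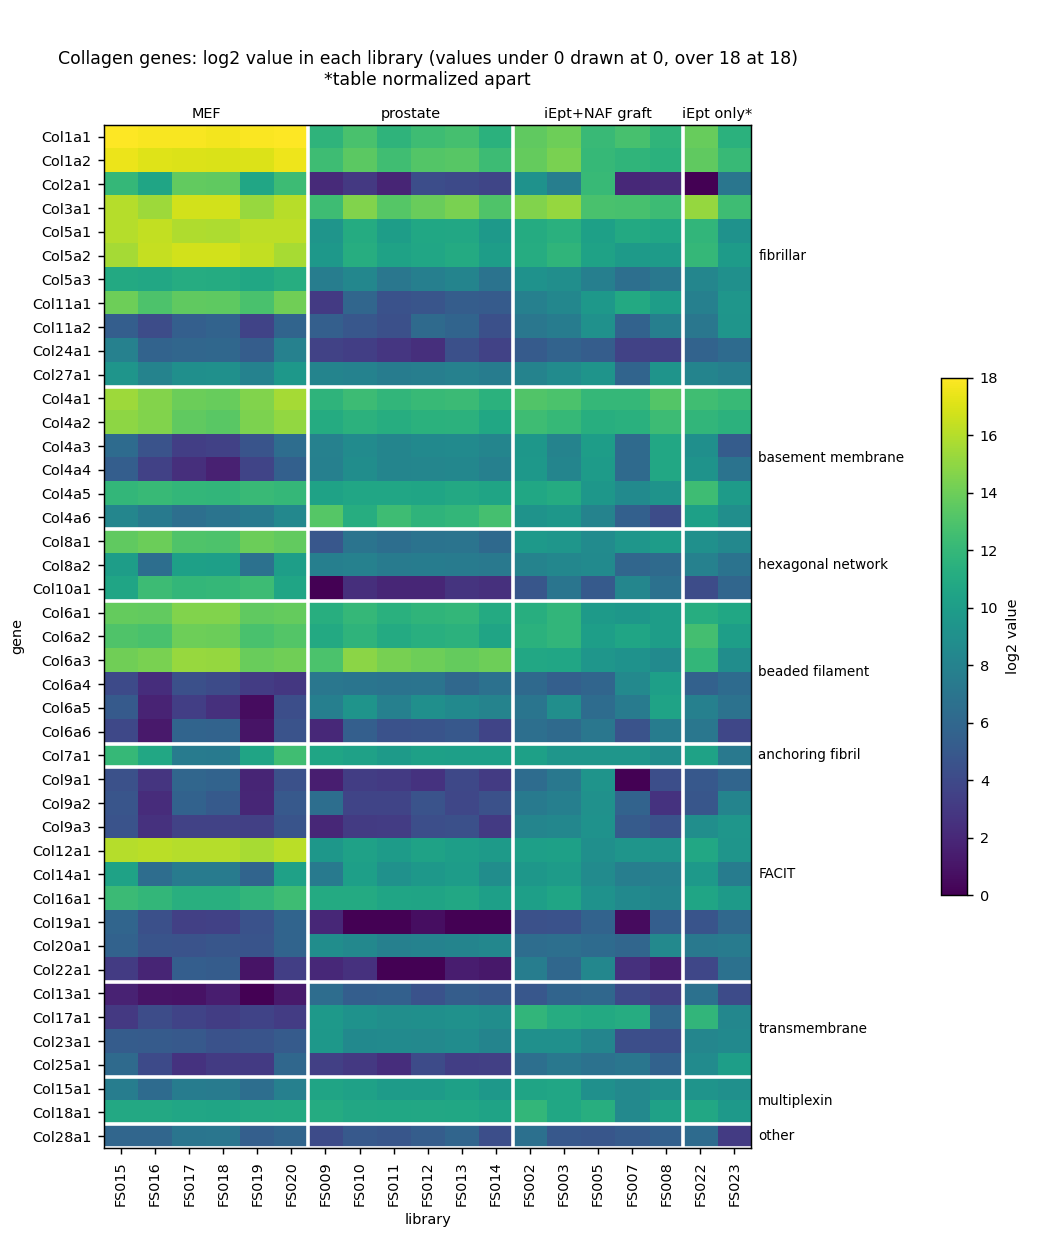
Log2 values of the 43 collagen genes (rows, grouped by structural class) in the 19 libraries (columns). The rows of types I, III and V and of Col12a1 are brightest in the 6 MEF columns (up to 18.36), Col4a6 is brightest in prostate, and Col17a1 is bright in 4 of the 5 iEpt+NAF grafts and in FS022.

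**Figure D3:**
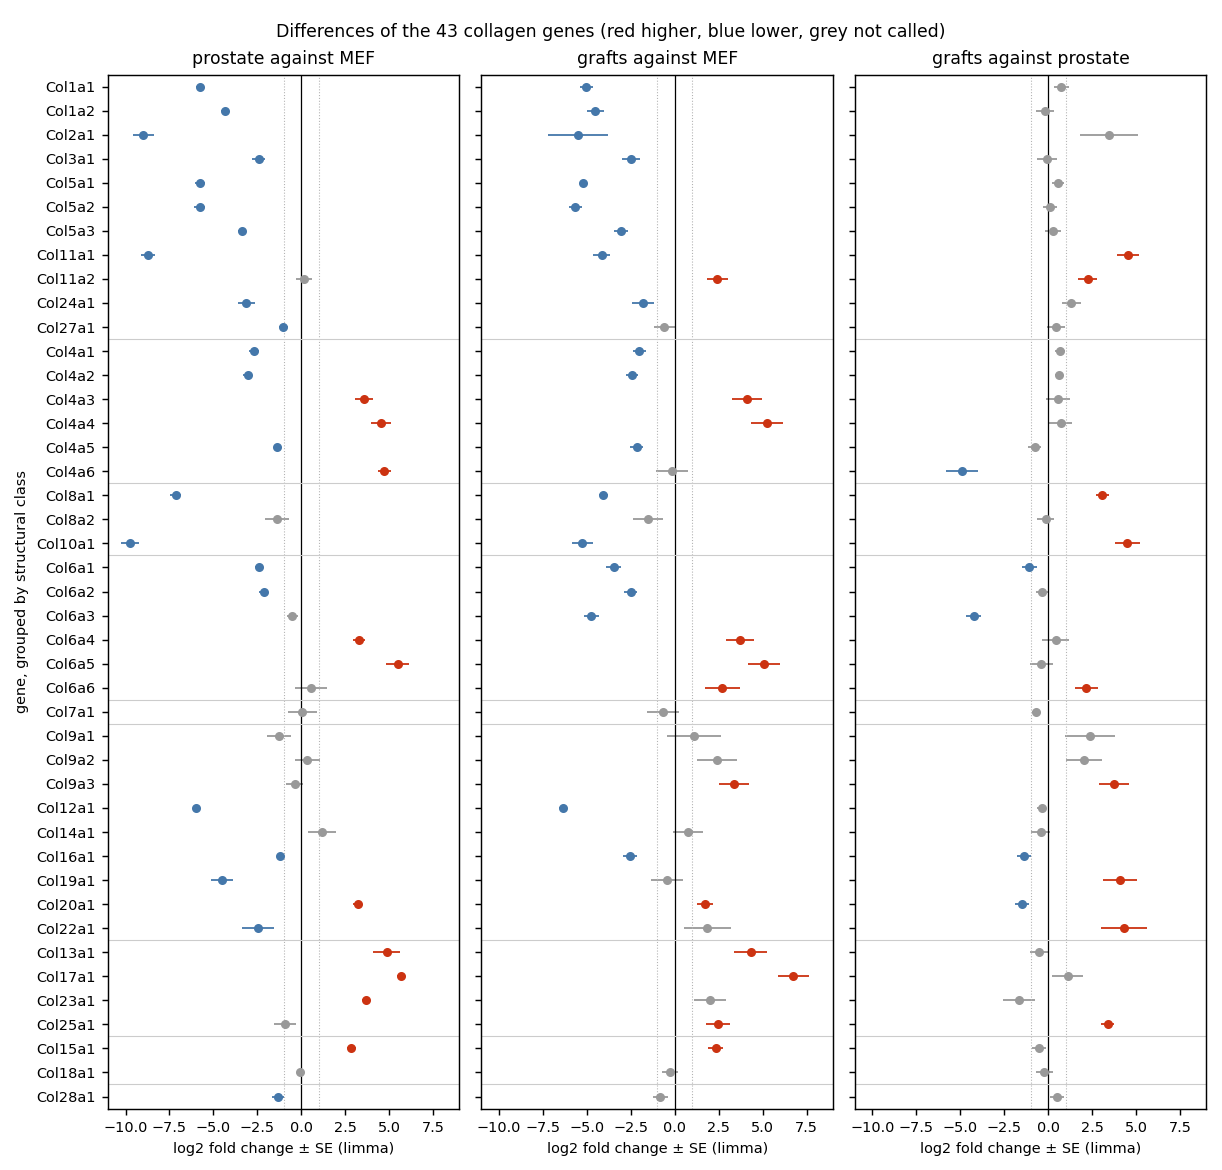
Log2 fold change with its standard error (horizontal axis) for each collagen gene in the 3 comparisons, red where called higher, blue where called lower and grey where not called. In the first panel 10 of 11 fibrillar genes are blue, and in the last panel 29 of the 43 genes are grey.

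Among the fibrillar genes, 10 of 11 were called lower in prostate than in MEFs and none higher, 9 were lower and 1 higher in the grafts than in MEFs, and 2 were higher and none lower in the grafts than in prostate. Of all genes tested, 20.5% and 12.0% were lower in the first 2 comparisons and 23.0% higher in the third. The median log2 fold changes of the fibrillar genes were -4.33, -4.17 and 0.56. Col1a1 encodes the main chain of type I collagen, the most abundant collagen of skin and bone. Its log2 value in MEFs was 17.70 at the lowest, 17.86 at the median and 18.36 at the highest, and in prostate 11.48 at the lowest, 12.08 at the median and 12.86 at the highest. The iEpt+NAF grafts had 13.63, 14.06, 12.23, 12.78 and 11.77. All MEF libraries lay above all others, and the graft and prostate ranges overlapped. The log2 fold change of Col1a1 was -5.78 (SE 0.23, adjusted p = 1.48e-10) in prostate against MEFs, -5.03 (SE 0.37, adjusted p = 9.37e-07) in grafts against MEFs and 0.75 (SE 0.42, adjusted p = 0.144) in grafts against prostate.

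Col1a2, which encodes the partner chain of type I collagen, reached 16.96 to 17.58 in MEFs (median 17.10), 12.35 to 13.46 in prostate (median 12.83) and 13.75, 14.35, 12.09, 11.75 and 11.47 in the grafts. Its log2 fold change was -4.33 (SE 0.21, adjusted p = 8.61e-10) in prostate and -4.52 (SE 0.48, adjusted p = 1.28e-05) in grafts against MEFs. The log2 ratio of Col1a1 over Col1a2, per transcript length, was 0.35 to 0.66 in MEFs, -1.02 to -0.76 in prostate and -0.27, -0.44, -0.01, 0.89 and 0.15 in the grafts. The MEF and prostate ratios did not overlap (exact two-sided permutation test, p = 0.00216, and 0.0238 with MEF couples averaged, each the smallest the design allows). Graft ratios lay above all prostate ratios (exact p = 0.00433, adjusted p = 0.00799 over the 24 ratio comparisons run). No graft ratio fell within the MEF range, FS007 lying above it and the other 4 below.

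Col3a1 encodes the only chain of type III collagen, a fibrillar collagen of soft and elastic tissues. It had 15.22 at the lowest, 16.04 at the median and 16.77 at the highest in MEFs, 12.42 at the lowest, 13.57 at the median and 14.59 at the highest in prostate, and 14.58, 15.16, 12.85, 12.73 and 12.36 in the grafts. All MEF libraries lay above all prostate and graft libraries, FS003 being the highest graft, and grafts and prostate overlapped. The log2 fold changes against MEFs were -2.43 (SE 0.39, adjusted p = 6.91e-05) in prostate and -2.50 (SE 0.53, adjusted p = 0.00169) in grafts, and the graft call was lost with quantile normalization (-1.44, adjusted p = 0.0518) and with FS019 and FS020 as the only MEFs (-2.11, adjusted p = 0.0845). Grafts differed from prostate by -0.06 (SE 0.56, adjusted p = 0.932).

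Col5a1 and Col5a2, whose type V chains join type I fibers and set their diameter, were near 16 in every MEF library (15.77 to 16.31 and 15.60 to 16.80) and between 9.41 and 11.81 in prostate and grafts. The Col5a1 difference from MEFs was -5.77 (SE 0.26, adjusted p = 3.83e-10) in prostate and -5.21 (SE 0.19, adjusted p = 1.45e-08) in grafts. Col5a3, the third chain of the type, had lower values, 10.72 to 11.21 in MEFs and 6.57 to 9.16 in the grafts.

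Col11a1 encodes a type XI chain, a fibrillar collagen known from cartilage. Its level was 12.85 at the lowest, 13.56 at the median and 14.07 at the highest in MEFs and 3.07 at the lowest, 4.97 at the median and 5.93 at the highest in prostate. The grafts held 7.82, 8.31, 9.58, 10.95 and 10.04, above every prostate library and below every MEF library, and FS007 was the highest of them. Col11a1 had the largest rise of any collagen gene called in grafts against prostate, 4.55 (SE 0.61, adjusted p = 9.75e-05), while against MEFs it fell in both prostate, -8.71 (SE 0.40, adjusted p = 4.90e-10), and grafts, -4.17 (SE 0.51, adjusted p = 3.29e-05). Its partner Col11a2 went the other way against MEFs: it was higher in the grafts, 2.42 (SE 0.60, adjusted p = 0.00413), and not called in prostate, 0.17 (SE 0.45, adjusted p = 0.729). The graft call of Col11a2 was lost with quantile normalization, with FS003 and FS007 only, and with FS019 and FS020 as the only MEFs.

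Col2a1, the chain of the main cartilage collagen, was named after its values were seen, for its spread. In MEFs it followed the close couples, with 12.00 and 12.32, 10.61 and 10.68, and 13.70 and 13.59. The grafts had 9.14, 7.73, 12.12, 2.05 and 2.20, so that 1 graft reached the MEF range while FS007 and FS008 stood close to the level of 3 reads. Prostate had 1.85 to 4.29. The call in grafts against MEFs, -5.50 (SE 1.69, adjusted p = 0.0137), was lost with MEF couples averaged (adjusted p = 0.0815) and with FS019 and FS020 as the only MEFs (-4.85, adjusted p = 0.210). Against prostate it was not called over the 5 grafts, 3.48 (SE 1.65, adjusted p = 0.0924), and was called without FS007 or without FS008. Of 6 chondrocyte markers, Acan and Comp are cartilage matrix genes. In the MEF couple FS017 and FS018 they were at 9.46 and 9.49 and at 12.39 and 12.38. They were at most 7.46 and 6.81 in the other MEF libraries. Hapln1 was at 9.86 and 9.85 in this couple, Lect1 at 4.36 and 4.67, and Matn3 at 6.76 or above. In the other MEF libraries these genes were at most 7.29, 0.56 and 6.40. Matn1 was below the level of 3 reads in every MEF library. The summed level of the 6 markers was 10.5, 11.6, 59.3, 41.0 and 121 rpm in the 5 grafts, 0.844 to 3.08 in prostate and 15.4 to 376 in MEFs. The markers did not share an order over the grafts: Acan (3.88, 4.50, 7.86, 4.84 and 4.31), Comp (2.78, 3.76, 4.50, 3.26 and 3.42), Matn1 (1.04, 1.06, 6.98, 1.21 and -1.18) and Lect1 (6.35, 5.91, 6.64, 4.70 and 2.49) were highest in FS005, as Col2a1 was, Matn3 (3.95, 2.05, 5.61, 5.73 and 4.92) in FS007, and Hapln1 (5.20, 6.22, 8.28, 9.06 and 10.83) in FS008. Their part in the Col2a1 values was not tested.

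The remaining fibrillar genes had low values. Col24a1, a minor fibrillar chain, was at 5.32 to 7.89 in MEFs and 2.40 to 4.42 in prostate and was called lower in prostate, -3.12 (SE 0.50, adjusted p = 6.54e-05). Col27a1 was at 7.99 to 9.59 in MEFs and 7.56 to 8.11 in prostate, with a call at the edge of the minimum size, -1.03 (SE 0.26, adjusted p = 0.00249), lost with a pseudocount of 10, in 1 fit of all 17 libraries, and with FS019 and FS020 as the only MEFs. Its graft values of 5.83 to 9.33 spanned both ranges. These 2 genes also carry the shortest unbroken repeats of the class.

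The 6 type IV genes lie in the mouse genome as 3 pairs with opposite orientation and neighbouring starts. In mm9, Col4a1 (chr8:11198423-11312826, minus strand) and Col4a2 (chr8:11312805-11449287, plus strand) overlap at their annotated starts by 22 bases. Col4a4 (chr1:82447298-82583424, minus strand) and Col4a3 (chr1:82583496-82718634, plus strand) are separated by 71 bases. Col4a6 (chrX:137599946-137908619, minus strand) and Col4a5 (chrX:137909928-138123778, plus strand) are separated by 1308 bases. No protein-coding gene lies between the partners of a pair. The stretches where the pairs meet are shown because the levels of partners are compared below, in mm9, 5′ to 3′, on the strand given, with any match to GGGCGG or its reverse complement CCGCCC in capitals.
Col4a1 and Col4a2 start overlap, chr8:11312805-11312826, plus strand: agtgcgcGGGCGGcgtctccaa
Between Col4a4 and Col4a3, chr1:82583425-82583495, plus strand: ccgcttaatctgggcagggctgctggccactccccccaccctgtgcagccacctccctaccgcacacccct
Upstream of Col4a5, chrX:137909778-137909927, plus strand: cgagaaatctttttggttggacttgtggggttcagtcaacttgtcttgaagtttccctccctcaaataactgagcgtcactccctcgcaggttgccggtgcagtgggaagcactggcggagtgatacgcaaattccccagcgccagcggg
Upstream of Col4a6, chrX:137908620-137908769, minus strand: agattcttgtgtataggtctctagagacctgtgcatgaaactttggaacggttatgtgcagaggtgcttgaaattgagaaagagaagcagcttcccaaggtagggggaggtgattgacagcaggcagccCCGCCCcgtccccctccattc
Neither CCAAT nor TATAAA was found on either strand of these 4 stretches. For Col4a1 and Col4a2 only the 22 bases inside both genes were searched, so absence there says little about the bases around them. The shares given next are for longer stretches upstream of genes and do not apply to this overlap. GGGCGG was found once in the Col4a1 and Col4a2 overlap and once upstream of Col4a6. Of 22380 protein-coding genes, 35.4% had GGGCGG, 26.1% CCAAT and 7.88% TATAAA on either strand within 150 bases upstream, and within 71 bases the shares were 26.0%, 14.4% and 4.81%. A match is a description of the letters and not a binding site. The strandedness of the read counting is not given in the sources used here, so reads in the 22 shared bases cannot be assigned to Col4a1 or Col4a2.

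In prostate against MEFs the pairs parted: 3 type IV genes were called higher (Col4a3, Col4a4 and Col4a6) and 3 lower (Col4a1, Col4a2 and Col4a5). In grafts against MEFs, Col4a3 and Col4a4 were called higher, Col4a1, Col4a2 and Col4a5 lower, and Col4a6 was not called. Col4a6 alone was called in grafts against prostate, as lower. With 6 genes, counts of 2 or 3 are to be read beside the 27.8% and 29.9% of all genes called higher and the 20.5% and 12.0% called lower.

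Col4a1 and Col4a2 encode the chains of the type IV trimer that is present in nearly all basement membranes. Col4a1 had 13.81 at the lowest, 14.62 at the median and 15.54 at the highest in MEFs, 11.46 at the lowest, 11.99 at the median and 12.34 at the highest in prostate and 13.13, 12.94, 11.95, 12.01 and 13.15 in the grafts. Col4a2 had 13.41 at the lowest, 14.51 at the median and 15.07 at the highest in MEFs, 10.74 at the lowest, 11.34 at the median and 11.60 at the highest in prostate and 12.39, 12.03, 11.30, 11.41 and 12.32 in the grafts. For both genes the MEF libraries lay above all others, and the couple FS017 and FS018 was the lowest of the MEFs. The log2 fold changes against MEFs were -2.69 and -3.06 in prostate (adjusted p = 1.52e-06 and 3.14e-07) and -2.02 and -2.45 in grafts (adjusted p = 5.72e-04 and 7.98e-05). Both were slightly higher in grafts than in prostate, by 0.67 (adjusted p = 0.0463) and 0.61 (adjusted p = 0.0446), below the minimum size for a call. The log2 ratio of Col4a1 over Col4a2 per length stayed within 0.03 to 0.86 over the 17 libraries. It was 0.03 to 0.44 in MEFs, 0.57 to 0.71 in prostate and 0.57 to 0.86 in the grafts. MEF ratios did not overlap those of prostate or of the grafts (exact two-sided permutation tests, p = 0.00216 and 0.00433, adjusted p = 0.00799 for each). With couples averaged these were 0.0238 and 0.0357.

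Col4a3 and Col4a4 encode chains that join with that of Col4a5 in the basement membrane of the kidney glomerulus and a few other sites. Col4a3 was at 3.31 at the lowest, 4.62 at the median and 6.42 at the highest in MEFs, 7.91 at the lowest, 8.38 at the median and 8.70 at the highest in prostate and 9.52, 8.05, 10.04, 6.22 and 10.77 in the grafts. Col4a4 was at 1.66 at the lowest, 3.57 at the median and 5.49 at the highest in MEFs, 7.83 at the lowest, 8.20 at the median and 8.82 at the highest in prostate and 9.57, 8.18, 9.87, 6.19 and 10.78 in the grafts. The partners rose and fell together: in each of the 5 grafts they differed by at most 0.17 log2 units, while each spread from about 6 to about 11 over the grafts. Against MEFs, prostate was higher by 3.58 (SE 0.51, adjusted p = 2.10e-05) for Col4a3 and 4.53 (SE 0.58, adjusted p = 8.93e-06) for Col4a4, and the grafts by 4.13 (SE 0.86, adjusted p = 0.00139) and 5.24 (SE 0.91, adjusted p = 4.18e-04). The log2 ratio of the partners per length was -0.24 to 0.26 in prostate and -0.18, -0.25, 0.04, -0.10 and -0.14 in the grafts. In the 5 MEF libraries with both genes above 3 reads it was 0.82 to 1.12, above all prostate and graft ratios. Exact two-sided permutation tests gave p = 0.00433 against prostate and 0.00794 against grafts (adjusted p = 0.00799 and 0.0136), and 0.0238 and 0.0357 with couples averaged.

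The graft values of this pair are given beside the kidney genes. FS002, FS005 and FS008, with 5871, 11965 and 10074 rpm of kidney tubule genes, had Col4a3 at 9.52, 10.04 and 10.77. FS003 and FS007, with 87.4 and 444, had Col4a3 at 8.05 and 6.22. With FS003 and FS007 only, the graft difference from MEFs was 2.35 for Col4a3 (adjusted p = 0.0677, not called, nor with FS019 and FS020 as the only MEFs) and 3.51 for Col4a4 (adjusted p = 0.0266). The part of host kidney in these values was not tested.

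Col4a5 encodes a chain shared by the glomerular trimer and the trimer with Col4a6, and Col4a6 a chain found in basement membranes of skin, esophagus and smooth muscle. Col4a5 varied little within MEFs and prostate, with 11.83 at the lowest, 11.96 at the median and 12.17 at the highest in MEFs, 10.36 at the lowest, 10.60 at the median and 10.86 at the highest in prostate and 10.72, 11.07, 9.51, 8.64 and 9.24 in the grafts. Every MEF library was above every prostate library and iEpt+NAF graft, and the log2 fold change was -1.39 (SE 0.09, adjusted p = 9.20e-09) in prostate and -2.16 (SE 0.38, adjusted p = 4.54e-04) in grafts against MEFs. Col4a6 was at 6.55 at the lowest, 7.35 at the median and 8.39 at the highest in MEFs and at 11.19 at the lowest, 12.17 at the median and 13.29 at the highest in prostate. In the grafts it was at 9.22, 9.52, 8.06, 5.51 and 4.18. All 6 prostate libraries lay above every MEF and every graft library, and FS007 and FS008 lay below all MEF libraries. The log2 fold change of Col4a6 was 4.73 (SE 0.38, adjusted p = 9.00e-08) in prostate against MEFs, -0.17 (SE 0.90, adjusted p = 0.877) in grafts against MEFs and -4.90 (SE 0.90, adjusted p = 8.09e-04) in grafts against prostate, the largest fall of any collagen gene in that comparison. The last difference stayed called when any 1 graft was left out.

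Although their starts are neighbours, the ratio of Col4a5 to Col4a6 turned around between groups. Per length, the log2 ratio of Col4a5 over Col4a6 was 3.66 to 5.38 in MEFs and -2.91 to -0.49 in prostate (exact two-sided permutation test, p = 0.00216, adjusted p = 0.00799). The 5 grafts had 1.52, 1.58, 1.48, 3.20 and 5.21, all above prostate (exact p = 0.00433, adjusted p = 0.00799). Against MEFs the graft ratios overlapped (exact p = 0.0303, and 0.143 with couples averaged). Smooth muscle is 1 of the sites of the Col4a6 chain named above. Its markers Acta2, Myh11, Tagln, Cnn1, Des and Smtn summed to 4801 to 8853 rpm in prostate, 4286 to 7100.2 in MEFs and 1849, 1767, 1089, 807 and 365 in the iEpt+NAF grafts. In FS022 and FS023 they summed to 17360 and 219 rpm, beside Col4a6 at 10.24 and 8.88, both below every prostate library. The part of these markers in the Col4a6 values was not tested. The MEF sum was carried by Acta2 and Tagln, while Myh11 was at 9.61 to 10.77 in MEFs, 14.70 to 15.50 in prostate and 11.77, 11.68, 11.20, 11.88 and 10.58 in the grafts.

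**Figure D4:**
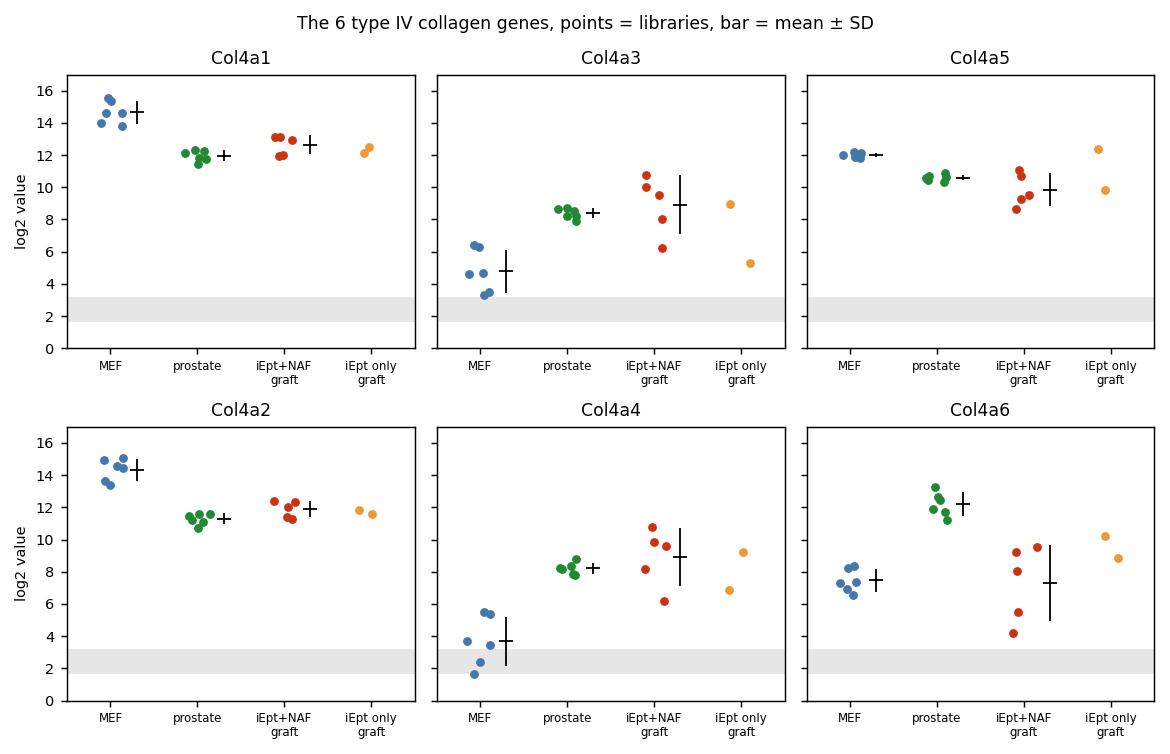
Log2 values (vertical axis) of the 6 type IV collagen genes, each point 1 library, with the mean ± SD of a group beside its points and the level of 3 reads as a grey band. Partners stand in 1 column: Col4a1 and Col4a2 are highest in MEFs, Col4a3 and Col4a4 share their graft spread, and Col4a6 separates prostate from all other libraries while Col4a5 does not.

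Type VI collagen forms beaded filaments around cells, from chains of Col6a1 and Col6a2 and 1 further chain, of Col6a3 or of the related Col6a4, Col6a5 and Col6a6. Col6a1 had 13.58 at the lowest, 13.75 at the median and 14.60 at the highest in MEFs, 11.01 at the lowest, 11.62 at the median and 12.01 at the highest in prostate and 11.32, 11.88, 9.81, 9.54 and 10.03 in the grafts. Col6a2 had 12.81 at the lowest, 13.11 at the median and 14.05 at the highest in MEFs, 10.50 at the lowest, 11.15 at the median and 11.73 at the highest in prostate and 11.48, 11.87, 10.10, 10.58 and 10.01 in the grafts. Every MEF library was above every other library for both genes, and grafts and prostate overlapped. Both fell against MEFs, with log2 fold changes of -2.41 (SE 0.23, adjusted p = 4.06e-07) and -2.15 (SE 0.27, adjusted p = 6.11e-06) in prostate and of -3.47 (SE 0.42, adjusted p = 3.11e-05) and -2.51 (SE 0.38, adjusted p = 1.60e-04) in grafts. Col6a1 was also called lower in grafts against prostate, at the edge of the threshold, -1.06 (SE 0.40, adjusted p = 0.0410), and this call was lost with quantile normalization, with the median shift, without a trend in the spread, with FS003 and FS007 only, and without FS005, FS007 or FS008.

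Col6a3, the largest of the common chains, separated prostate from the grafts. It had 13.90 at the lowest, 14.26 at the median and 15.23 at the highest in MEFs and 12.90 at the lowest, 14.03 at the median and 14.88 at the highest in prostate, overlapping ranges with a log2 fold change of -0.51 (SE 0.32, adjusted p = 0.157). The grafts had 10.78, 10.65, 9.48, 9.16 and 8.64, each below every MEF and prostate library. Col6a3 fell in grafts against prostate, -4.23 (SE 0.43, adjusted p = 1.41e-05), and against MEFs, -4.75 (SE 0.42, adjusted p = 3.00e-06), and both calls held under every alternative run. The log2 ratio of Col6a3 over Col6a1 per length was 0.50 to 1.95 in prostate, -0.78 to -0.35 in MEFs and -1.64, -2.33, -1.43, -1.48 and -2.49 in the grafts. No 2 of the 3 groups overlapped in this ratio (exact two-sided permutation tests, p = 0.00216 for prostate against MEFs, 0.00433 for grafts against MEFs and 0.00433 for grafts against prostate, adjusted p = 0.00799 for each). With couples averaged the first 2 were 0.0238 and 0.0357.

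Col6a4, Col6a5 and Col6a6, which lie next to each other on chromosome 9, were low in MEFs, at 2.36 to 4.36, 0.57 to 5.09 and 0.98 to 5.82. In prostate they were at 6.12 to 7.13, 7.79 to 9.33 and 2.10 to 5.48, with calls for Col6a4, 3.29 (SE 0.34, adjusted p = 1.08e-06), and Col6a5, 5.48 (SE 0.66, adjusted p = 4.52e-06). All 3 were called higher in the grafts than in MEFs, by 3.71, 5.10 and 2.71 (adjusted p = 0.00215, 5.35e-04 and 0.0297). With quantile normalization Col6a4 and Col6a6 were not called, and the call of Col6a6 was also lost without FS002, FS005 or FS008 and with MEF couples averaged. FS008 had the highest graft value of each, 10.17, 10.42 and 7.54.

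**Figure D5:**
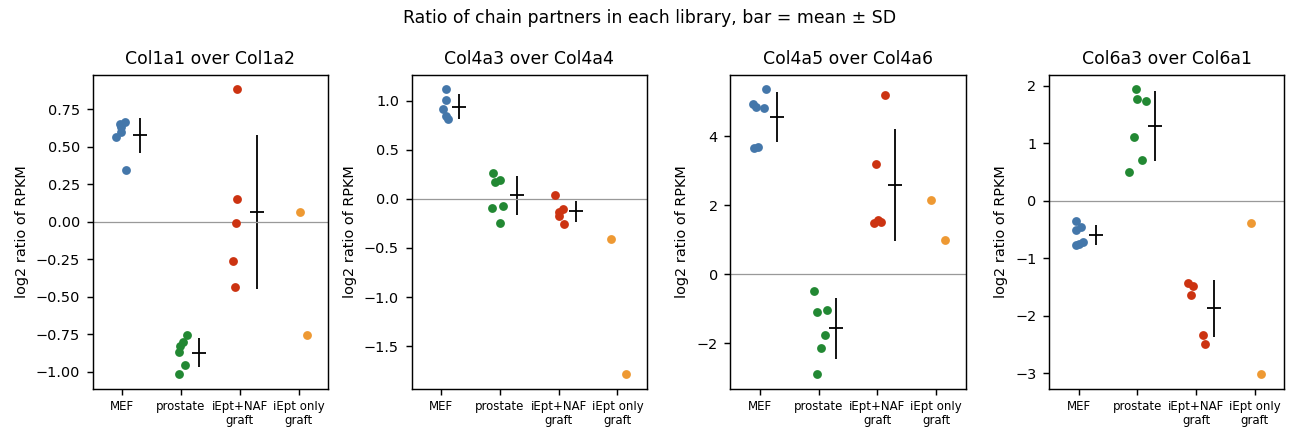
Log2 ratio of RPKM (vertical axis) of 4 pairs of chain partners in each library, with the mean ± SD of a group beside its points. Col4a5 over Col4a6 lies below 0 in all 6 prostate libraries and above 0 in all others, and Col6a3 over Col6a1 lies above 0 in prostate only.

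Of the hexagonal network genes, Col8a1 encodes a chain of type VIII collagen, known from vessel walls and the cornea. It had 12.97 at the lowest, 13.63 at the median and 13.99 at the highest in MEFs, 4.89 at the lowest, 6.67 at the median and 6.92 at the highest in prostate and 9.66, 9.45, 8.71, 9.47 and 9.98 in the grafts, so that the 3 groups did not overlap. Its log2 fold change was -7.15 (SE 0.33, adjusted p = 4.74e-10) in prostate against MEFs, -4.07 (SE 0.25, adjusted p = 2.71e-07) in grafts against MEFs and 3.08 (SE 0.37, adjusted p = 4.24e-05) in grafts against prostate. The partner gene Col8a2 had 6.52 at the lowest, 10.04 at the median and 10.26 at the highest in MEFs, 7.26 at the lowest, 7.55 at the median and 7.89 at the highest in prostate and 8.03, 8.31, 8.60, 5.97 and 6.24 in the grafts, and was called in no comparison. In MEFs the couple FS016 and FS019 stood apart for Col8a2, at 6.52 and 6.68.

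Col10a1, the chain of a network collagen known from hypertrophic cartilage, showed the largest fall of any collagen gene in prostate against MEFs. It had 10.56 at the lowest, 11.97 at the median and 12.36 at the highest in MEFs and -0.24 at the lowest, 2.19 at the median and 2.72 at the highest in prostate, where 3 of 6 libraries had at most 3 reads. The grafts had 4.84, 7.03, 5.10, 8.23 and 6.70, between the other groups and without overlap. The log2 fold change was -9.75 (SE 0.50, adjusted p = 1.32e-09) in prostate against MEFs, a size that rests on prostate values near the floor, -5.25 (SE 0.61, adjusted p = 2.45e-05) in grafts against MEFs and 4.50 (SE 0.72, adjusted p = 3.13e-04) in grafts against prostate. Of the 6 osteoblast markers, the 2 most abundant in the grafts were Runx2 and Alpl. The others, Sp7, Ibsp, Bglap and Bglap2, were at most 3.82 in any graft, many of their values being near or below the level of 3 reads. The graft sum of the list given below is therefore mostly that of Runx2 and Alpl. Runx2, which is also expressed by hypertrophic chondrocytes, was at 8.16, 7.86, 7.40, 9.96 and 8.12 in the grafts, 9.86 to 10.45 in MEFs and 5.41 to 6.24 in prostate. Alpl, which kidney also expresses, was at 10.06, 8.29, 10.45, 6.61 and 10.98 in the grafts, 2.11 to 5.21 in MEFs and above every MEF library and at most 9.45 in prostate. FS007, the highest graft for Col10a1, was the highest for Runx2 and the lowest for Alpl. The whole osteoblast list summed to 97.4, 38.2, 113, 70.4 and 149 rpm in the grafts, 50.8 to 75.9 in MEFs and 19.7 to 36.0 in prostate, and its part in the Col10a1 values was not tested.

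Col7a1 encodes the anchoring fibril chain that ties the basement membrane of skin to the dermis. It had 7.40 at the lowest, 10.66 at the median and 12.48 at the highest in MEFs, 9.80 at the lowest, 10.19 at the median and 10.56 at the highest in prostate and 10.24, 9.43, 9.48, 9.44 and 8.83 in the grafts. The MEF values split by couple, with FS017 and FS018 at 7.48 and 7.40, below all prostate libraries and iEpt+NAF grafts, and the other 4 between 10.54 and 12.48. Neither comparison with MEFs called it, with 0.06 (SE 0.81, adjusted p = 0.946) in prostate and -0.64 (SE 0.91, adjusted p = 0.549) in grafts, and with FS019 and FS020 as the only MEFs it was called lower in both. The difference of grafts from prostate was -0.70 (SE 0.21, adjusted p = 0.0148), below the minimum size.

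Among the 9 FACIT genes, 4 were called lower and 1 higher in prostate than in MEFs, 2 lower and 2 higher in the grafts than in MEFs, and 2 lower and 3 higher in the grafts than in prostate. These are shares of 44.4% and 11.1%, 22.2% and 22.2%, and 22.2% and 33.3%, against 20.5% and 27.8%, 12.0% and 29.9%, and 10.3% and 23.0% of all genes tested. Col12a1, which encodes a FACIT collagen of tendon and other dense tissue that binds type I fibers, had 15.68 at the lowest, 16.00 at the median and 16.11 at the highest in MEFs, 9.54 at the lowest, 9.99 at the median and 10.34 at the highest in prostate and 10.19, 10.26, 8.97, 9.37 and 9.30 in the grafts. Every MEF library was above every prostate library and iEpt+NAF graft by more than 5 log2 units. Col12a1 showed the largest fall of any collagen gene in grafts against MEFs, -6.36 (SE 0.23, adjusted p = 1.45e-08), with -5.98 (SE 0.13, adjusted p = 3.99e-12) in prostate. Against prostate the graft difference was -0.38 (SE 0.25, adjusted p = 0.213), with overlapping ranges. Its SDs, 0.16 in MEFs, 0.31 in prostate and 0.58 in the grafts, were small beside these differences. Col16a1, a FACIT chain of fibroblasts and smooth muscle, had 11.33 at the lowest, 11.89 at the median and 12.38 at the highest in MEFs, 10.15 at the lowest, 10.68 at the median and 11.00 at the highest in prostate and 10.14, 10.55, 9.15, 8.54 and 8.13 in the grafts, and was called lower in each of the 3 comparisons. The log2 fold changes were -1.19 (SE 0.20, adjusted p = 1.05e-04) in prostate against MEFs, -2.55 (SE 0.41, adjusted p = 2.61e-04) in grafts against MEFs and -1.36 (SE 0.40, adjusted p = 0.0122) in grafts against prostate, the last lost with FS003 and FS007 only. MEFs did not overlap with the other groups, and grafts FS002 and FS003 lay within or next to the prostate range.

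Col9a1, Col9a2 and Col9a3 encode the chains of type IX collagen, which coats the fibers of cartilage. In MEFs they were low, at 1.84 to 5.92, 1.95 to 5.65 and 2.56 to 4.65 (medians 4.46, 4.88 and 3.55). In prostate they were at 1.50 to 3.92, 3.68 to 6.54 and 2.00 to 4.39 (medians 3.08, 4.16 and 3.19). The grafts had 6.37, 7.22, 9.29, -0.74 and 4.29 for Col9a1, 7.43, 7.78, 9.07, 5.71 and 2.62 for Col9a2 and 8.16, 8.31, 9.21, 5.20 and 4.54 for Col9a3. FS005, the graft with the highest Col2a1, was also the highest graft for all 3 chains, and FS007 and FS008 were the lowest. Col9a3 alone was called, higher in grafts than in prostate by 3.73 (SE 0.85, adjusted p = 0.00315) and than in MEFs by 3.36 (SE 0.84, adjusted p = 0.00446), the latter lost with quantile normalization and with FS019 and FS020 as the only MEFs. The other two did not pass in any comparison over the 5 grafts, and Col9a1 in FS007 was below the level of 3 reads.

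The other FACIT genes were low in at least 1 group. Col20a1 had 7.81 to 8.83 in prostate, 4.61 to 5.80 in MEFs and 5.97 to 8.49 in the grafts, and was called higher in both against MEFs, but the graft difference of 1.74 turned to -0.38 with quantile normalization, and its call was lost with FS019 and FS020 as the only MEFs (adjusted p = 0.141). Against prostate Col20a1 was called lower in the grafts, -1.47 (SE 0.40, adjusted p = 0.00837). Col14a1 was called in no comparison, with MEF values of 5.82 to 10.40 that split by couple. Col19a1 had at most 3 reads in each prostate library, where it was called lower than in MEFs and grafts, so that its fold change has no fixed size. Col22a1 had at most 3 reads in 5 of 6 prostate libraries, and its graft values ran from 1.54 to 8.30.

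Of the transmembrane collagens, 3 of 4 were called higher in prostate than in MEFs, 3 of 4 in grafts than in MEFs and 1 of 4 in grafts than in prostate, and none lower. Of all genes tested, 27.8%, 29.9% and 23.0% were higher in these comparisons, so that the last count is near the background. Col17a1 encodes a collagen of the hemidesmosomes by which basal epithelial cells hold on to the basement membrane. It had 2.99 at the lowest, 3.42 at the median and 4.16 at the highest in MEFs, 8.83 at the lowest, 9.05 at the median and 9.75 at the highest in prostate and 11.87, 11.14, 10.93, 11.17 and 5.99 in the grafts. Col17a1 showed the largest rise of any collagen gene against MEFs both in prostate, 5.65 (SE 0.22, adjusted p = 1.03e-10), and in grafts, 6.75 (SE 0.89, adjusted p = 5.87e-05). Col17a1 did not pass in grafts against prostate, 1.10 (SE 0.87, adjusted p = 0.299). FS008 lay below and the other 4 grafts above all prostate libraries, and without FS008 it was called higher. The 4 basal epithelial markers Krt5, Krt14, Krt15 and Trp63 summed to 2615, 2109.5, 522, 573 and 18.5 rpm in the grafts, lowest in FS008 as Col17a1 was, and to 233 to 400.5 in prostate and 0.719 to 8.23 in MEFs. All 4 were above the level of 3 reads in each graft and prostate library. Their part in the Col17a1 values was not tested.

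Col23a1, a transmembrane collagen of low abundance, had 4.54 at the lowest, 5.09 at the median and 5.26 at the highest in MEFs, 8.13 at the lowest, 8.56 at the median and 9.57 at the highest in prostate and 9.06, 9.02, 8.20, 4.35 and 4.26 in the grafts. Prostate was above MEFs without overlap, by 3.70 (SE 0.22, adjusted p = 5.31e-09). Grafts FS002, FS003 and FS005 were within the prostate range while FS007 and FS008 were below all MEF libraries. Neither graft comparison passed over the 5 grafts, and against MEFs Col23a1 was called higher without FS007 or without FS008. Col13a1 had at most 3 reads in each MEF library, and was at 4.56 to 6.42 in prostate and at 4.92, 5.83, 6.03, 3.96 and 3.43 in the grafts. It was called higher in both against MEFs, with differences of at least 3.28 and 2.75 on the log2 scale when MEFs are set at the level of 3 reads, and the graft call was lost with quantile normalization. Col25a1 was at 6.54, 7.24, 6.76, 7.06 and 5.64 in the grafts, all above the prostate values of 2.35 to 4.13, and rose against prostate by 3.37 (SE 0.39, adjusted p = 3.24e-05).

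The multiplexins Col15a1 and Col18a1 encode basement membrane collagens, and the end of the Col18a1 chain is the source of endostatin. Col18a1 was called in no comparison, with 10.59 at the lowest, 10.85 at the median and 10.96 at the highest in MEFs, 10.41 at the lowest, 10.75 at the median and 11.09 at the highest in prostate and 11.91, 10.73, 11.25, 8.47 and 10.30 in the grafts. Its log2 fold change was -0.05 (SE 0.10, adjusted p = 0.634) in prostate and -0.27 (SE 0.48, adjusted p = 0.635) in grafts against MEFs, and -0.21 (SE 0.48, adjusted p = 0.720) in grafts against prostate. FS007 was the lowest and FS002 the highest of the 17 libraries. Col15a1 had 6.30 at the lowest, 7.51 at the median and 7.86 at the highest in MEFs, 9.59 at the lowest, 10.07 at the median and 10.50 at the highest in prostate and 10.54, 10.67, 9.06, 8.50 and 8.95 in the grafts. It was higher than in MEFs in prostate, 2.85 (SE 0.27, adjusted p = 4.01e-07), and in grafts, 2.32 (SE 0.45, adjusted p = 8.96e-04), with no overlap. Col28a1, which stands in no class and is known from peripheral nerve, had 5.48 at the lowest, 5.95 at the median and 7.06 at the highest in MEFs, 4.11 at the lowest, 4.92 at the median and 5.88 at the highest in prostate and 6.66, 4.92, 4.81, 5.16 and 5.50 in the grafts, so that all 3 groups overlapped. It was called in prostate against MEFs, -1.31 (SE 0.35, adjusted p = 0.00406), and this call was lost with FS019 and FS020 as the only MEFs.

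Collagen genes had their largest spread among the grafts. Over the genes above the level of 3 reads in every library of a group, the median SD was 0.50 in prostate (36 genes), 0.65 in MEFs (37 genes) and 1.12 in the grafts (40 genes). A range of over 2 log2 units was found for 7 of these genes in prostate, 12 in MEFs and 31 in the grafts. The widest was that of Col2a1 in the grafts. Such counts were not made over all genes, so the wider graft spread is not read as a trait of collagen genes. Over highly expressed genes in general, the spread of the log2 difference between libraries was 0.263 to 0.578 in grafts. It was 0.121 to 0.321 in prostate and, outside the close couples, 0.283 to 0.331 in MEFs.

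FS022 and FS023, taken as iEpt only, stand in a table normalized apart and enter no test. Of the 43 collagen genes, 29 in FS022 and 30 in FS023 lay within the range of the 5 iEpt+NAF grafts, and 20 did so in both. In FS022, 12 lay above and 2 below that range, and in FS023 5 lay above and 8 below. The same shares over all genes were not computed, so no likeness is read from these counts. Type I and III chains differed between the 2 grafts, with 13.84 and 11.50 for Col1a1, 13.63 and 12.11 for Col1a2 and 15.14 and 12.40 for Col3a1. Col4a1 and Col4a2 were at 12.50 and 12.13 and 11.82 and 11.60. Col4a3 and Col4a4 were at 8.94 and 5.27 and 9.22 and 6.88, and Col4a5 and Col4a6 at 12.39 and 9.85 and 10.24 and 8.88. Both were below every prostate library for Col4a6, as the iEpt+NAF grafts were, and for Col6a3, at 11.93 and 8.81. Col17a1 was at 11.86 and 8.33, Col10a1 at 4.21 and 5.91, Col11a1 at 7.83 and 9.45 and Col12a1 at 10.78 and 9.37. Col24a1 (5.76 and 6.27) and Col25a1 (8.70 and 10.06) were above all 5 iEpt+NAF grafts in both. In an alternative, each library was shifted by its median difference from the mean of all 19 libraries. This difference was -0.10 in FS022 and -0.12 in FS023, so both were raised, and 28 and 31 genes were within the range.

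Genes that make, move, bind and cut collagen were read from 5 lists. Of all genes tested, 27.8% were called higher and 20.5% lower in prostate against MEFs, 29.9% and 12.0% in grafts against MEFs, and 23.0% and 10.3% in grafts against prostate, and the list counts are to be set beside these shares. Of 17 procollagen folding and modification genes, 14 were called lower and 1 higher in prostate than in MEFs, 14 and 2 in grafts than in MEFs, and 3 and 2 in grafts than in prostate, with medians of -2.12, -2.45 and 0.02. Nothing is read from the few calls in grafts against prostate, whose median was near 0. Serpinh1, the collagen chaperone HSP47, fell, with log2 fold changes of -4.06 (adjusted p = 6.59e-10) in prostate and -4.15 (adjusted p = 1.01e-05) in grafts against MEFs. Fkbp10, a prolyl isomerase of the endoplasmic reticulum, changed by -4.68 (adjusted p = 1.85e-11) and -4.66 (adjusted p = 3.48e-07). Of 11 tested secretion and propeptide removal genes, 8 were lower and 2 higher in prostate, and 8 lower and 1 higher in grafts, than in MEFs. Pcolce, which enhances removal of the procollagen end piece, changed by -3.44 (adjusted p = 2.26e-09) and -2.89 (adjusted p = 1.02e-06). For grafts against prostate, 3 of 12 were lower and 0 higher, the largest Tll2 with -2.73 (adjusted p = 0.00952).

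Of 9 tested collagen receptor genes, 5 were lower and 1 higher in prostate, and the same numbers in grafts, against MEFs, and 2 were lower and 2 higher in grafts than in prostate, where the number higher was near the share of all genes. Itga11, an integrin chain that binds fibrillar collagen, changed by -7.13 (adjusted p = 4.66e-10) in prostate and -7.01 (adjusted p = 1.88e-08) in grafts. Mrc2, an endocytic receptor for collagen fragments, changed by -4.80 (adjusted p = 4.39e-11) and -4.73 (adjusted p = 1.41e-06). Of the collagenases and their inhibitors, 7 of 10 were lower and 2 higher in prostate, 7 of 9 lower and 1 higher in grafts, against MEFs, and 2 of 10 lower and 4 higher in grafts against prostate. The inhibitor gene Timp1 changed by -6.24 (adjusted p = 1.87e-08) and -4.91 (adjusted p = 1.70e-05) against MEFs, and the collagenase gene Mmp13 by 3.43 (adjusted p = 9.96e-04) in grafts against prostate.

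Of the 15 basement membrane partners of type IV collagen, in prostate against MEFs 4 were higher and 7 lower, in grafts against MEFs 5 and 8, and in grafts against prostate 2 and 2. The numbers higher against MEFs, and the number lower against prostate, were near the shares of all genes. Lamb3, a chain of the epithelial laminin of hemidesmosomes, rose by 4.80 (adjusted p = 5.53e-06) in prostate and 6.02 (adjusted p = 1.43e-05) in grafts against MEFs. Nid2, a nidogen that links laminin to type IV collagen, changed by -4.68 (adjusted p = 1.08e-09) in prostate against MEFs and by 1.44 (adjusted p = 0.0134) in grafts against prostate. Hspg2, the basement membrane proteoglycan perlecan, changed by -5.28 (adjusted p = 6.87e-07) in grafts against MEFs, and Lama2, a laminin chain of muscle and nerve, by -2.05 (adjusted p = 0.00344) in grafts against prostate.

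Marker genes of the labelled tissues were present. The 5 epithelial markers summed to 2134 to 3170.1 rpm in prostate and 1611 to 3685 in the grafts, against 1.84 to 25.8 in MEFs. The 7 fibroblast markers summed to 797 to 1390.5 in MEFs, 477 to 1165 in prostate and 790.1, 907, 406, 162 and 144 in the grafts. In the iEpt+NAF grafts, the order of the fibroblast sum was that of Col1a2 and Col3a1, as a description of 5 libraries. It was not that of Col1a1, which was higher in FS007 (12.78) than in FS005 (12.23). The part of the fibroblast sum in the collagen values was not tested. Endothelial markers (6 genes) summed to 183 to 319 in the grafts, 67.7 to 109 in prostate and 12.0 to 34.8 in MEFs, and skeletal muscle markers (5 genes) to 71.7 to 4379, 263 to 519 and 15.8 to 68.2. Schwann cell markers (4 genes) summed to 48.4 to 983, 63.7 to 90.3 and 5.20 to 12.2, and prostate secretion markers (5 genes) to 201 to 845, 62228 to 108967 and 0.212 to 173. The prostate transcripts in FS015 could account for 16.0% of its Col17a1 value. For any other collagen value above the level of 3 reads in FS015 to FS018, such transcripts could account for at most 5.69%.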

How the data were processed

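Per the labels and the submitters' processing notes, reads were demultiplexed with bcl2fastq 1.8.4, aligned to the mouse genome mm9 with TopHat and processed with Cufflinks and DESeq, of which no versions are given here. The authors deposited 2 tables of log2 normalized counts per gene, of 17 and 2 libraries, each normalized apart. Their low values carry scatter, so a count model was not used. Values between 11.5 and 15 were tested on the files: each was a whole read count within 0.05 reads on 1 scale per library, from which depth, the 3-read level, reads per 1000000 and RPKM were computed. Depth ranged from 16767287 to 26152339 gene reads in the table of 17 libraries, so values near the 3-read level are the least precise. The collagen genes and all gene lists were chosen with earlier results of these data known.

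Differences were fitted with limma 3.58.1 in R 4.3.3 (eBayes with trend) on the deposited log2 values of the 2 groups compared, over all genes whose mean on the linear scale reached 10, with Benjamini-Hochberg adjustment. A gene was called at an adjusted p under 0.05 and a log2 fold change of at least 1 in size, and the fit was tested on simulated data. Log2 fold changes of low genes are understated or scattered. Chain ratios used lengths of the transcript with the longest coding sequence in the mm9 gene annotation and exact two-sided permutation tests over libraries, so that a ratio rests on the annotated lengths and a difference of ratios does not. Genes described with values were the type I, III, IV and IX chains, Col6a1 to Col6a3, Col7a1, Col8a1, Col8a2, Col10a1, Col11a1, Col12a1, Col16a1, Col17a1, Col23a1, Col15a1, Col18a1 and Col28a1, and list genes were taken among the 3 largest called changes. Others named were chosen after their values were seen. FS022 and FS023 entered no test. Some marker values are not reported here. Sequences were read from the mm9 genome. Alternatives were no or a stricter filter, no minimum fold change, a pseudocount of 10, quantile normalization, a median shift, no trend, 1 fit of all 17 libraries, leaving out each graft, and FS019 and FS020 as the only MEFs. Averaging MEF couples and keeping only FS003 and FS007 were added after seeing the data.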

Additional observations from a re-analysis of the deposited data

Results flagged for a closer look

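A library was singled out where its gap to the nearest library of its group exceeded Dixon's critical value, over the 113 sets of values (a gene in a group) in which all libraries were above 3 reads. This held for 7 sets, and chance gives about 1 in 20, or 5.65. In prostate library FS009, Col8a1 was the lowest at 4.89, while Col9a2 at 6.54 and Col17a1 at 9.75 were the highest of the 6. In graft FS008, Col17a1 was the lowest at 5.99 and Col20a1 the highest at 8.49 of the 5. In MEFs, Col1a1 was the highest in FS020 at 18.36, although its close couple FS015 was at 17.94, and Col12a1 was the lowest in FS019 at 15.68, with FS016, its couple, at 16.11.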

How the results depend on the processing

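Of the counts of called collagen genes, those of prostate against MEFs stayed within 1.5 times of 10 higher and 22 lower under each alternative run, at 8 to 10 and 18 to 26. In grafts against MEFs, 12 higher genes became 5 with quantile normalization and 7 with FS019 and FS020 as the only MEFs. In grafts against prostate, 9 higher became 4 of 34 tested with a linear mean of at least 100. Without 1 graft at a time, grafts against MEFs had 11 to 14 higher and 18 to 20 lower, and grafts against prostate 8 to 15 higher and 4 to 6 lower. Among the called genes, Col20a1 alone changed sign, from 1.74 to -0.38 (adjusted p = 0.610) in grafts against MEFs with quantile normalization. That setting moved the median of all genes by -0.16 in prostate against MEFs, -0.54 in grafts against MEFs and -0.29 in grafts against prostate, and the cause of the lost calls was not tested. No paired analysis was possible because the labels give no replicate numbers that could pair libraries. Depth limits the genes near 3 reads, above all Col13a1 in MEFs and Col19a1, Col22a1 and Col10a1 in prostate.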
